A study of Mus musculus with 16 samples.

Results

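The genes described here are 34 regulators and markers of neuronal identity in the cerebral cortex, chosen by name as genes known to mark a cortical layer, a class of projection neuron or the progenitors of these neurons. They are 34 genes of a deposited table of 36930 gene entries. They were sorted into 10 genes of the upper layers, 1 gene of layer 4, 13 genes of the deep layers, 4 genes of the subplate and of Cajal-Retzius cells, and 6 genes of all cortical projection neurons or of their progenitors. All 34 were found in the table. Rasgrf2 is listed there as 2 entries, so that 35 entries were followed, and 34 of them passed the filter on low values. Eomes did not pass it.

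RNA was sequenced from the cortex of 16 C57BL6 mice at postnatal day 7 (P7). The comparison was between 8 Avil-ChR2 pups, which carry Advillin-Cre together with the Ai27D allele, a Cre-dependent fusion of channelrhodopsin-2 and tdTomato in the Rosa26 locus, and 8 ChR2-flfl litter mates, which carry the floxed allele without Cre and therefore do not express the channel. All 16 pups, controls included, were placed in blue light for 1 h a day from P1 to P5. In Avil-ChR2 pups the light excites peripheral sensory neurons, nociceptors among them, and the comparison asks what repeated early-life activation of these neurons leaves behind in the cortex. The Advillin promoter is a limit of the model: it is not restricted to nociceptors, and according to the study's text autonomic ganglia begin to express it only after the ages at which light was given.

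A cortical column is built from the inside out. Progenitors of the ventricular and subventricular zone, marked by Emx2 and Eomes, give rise first to subplate neurons and deep layer neurons and later to upper layer neurons, while Cajal-Retzius cells at the surface secrete reelin. Mutually opposed transcription factors then fix the output of each neuron: Fezf2 and Bcl11b (also called Ctip2) specify neurons that project below the cortex, Tbr1 and Sox5 those that project to the thalamus, and Cux1, Cux2 and the POU factors those that stay within the cortex. The first postnatal week is the period in which thalamic axons leave the subplate for layer 4, and in which Rorb-expressing neurons assemble into sensory maps.

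The promoters of 4 members are shown first, because the results by pup number given further on turn on these genes. RefSeq promoter windows of 250 bases before and 50 bases after the start site (build GRCm38.p6) matched 28 of the 34 members by symbol, while Crym, Ctgf, Pou3f1, Zfpm2, Foxp2 and Ldb2 had no window in the table. The windows shown belong to Nr4a2 (chr2:57123954-57124253, minus strand), Cplx3 (chr9:57606232-57606531, minus strand) and Tle4 (chr19:14598134-14598433, minus strand), whose mean level was lower in the pups of higher number, and to Emx2 (chr19:59458440-59458739, plus strand), whose mean level was higher there. Capitals mark, on either strand, the core of the cyclic AMP response element (TGACG), the TATA box (TATAAA), the GC box (GGGCGG) and the CCAAT box (CCAAT).
Nr4a2: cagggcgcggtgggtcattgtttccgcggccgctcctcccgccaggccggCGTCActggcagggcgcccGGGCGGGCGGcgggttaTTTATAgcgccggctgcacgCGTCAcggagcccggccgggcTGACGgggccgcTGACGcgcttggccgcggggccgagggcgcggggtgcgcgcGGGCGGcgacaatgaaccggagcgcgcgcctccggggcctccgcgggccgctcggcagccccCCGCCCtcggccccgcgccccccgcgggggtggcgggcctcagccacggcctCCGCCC
Cplx3: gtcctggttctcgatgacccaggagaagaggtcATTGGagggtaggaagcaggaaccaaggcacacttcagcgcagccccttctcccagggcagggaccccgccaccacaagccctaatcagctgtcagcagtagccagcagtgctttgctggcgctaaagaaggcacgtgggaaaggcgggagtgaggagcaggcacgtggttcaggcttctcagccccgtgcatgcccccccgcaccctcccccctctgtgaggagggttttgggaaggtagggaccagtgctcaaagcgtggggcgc
Tle4: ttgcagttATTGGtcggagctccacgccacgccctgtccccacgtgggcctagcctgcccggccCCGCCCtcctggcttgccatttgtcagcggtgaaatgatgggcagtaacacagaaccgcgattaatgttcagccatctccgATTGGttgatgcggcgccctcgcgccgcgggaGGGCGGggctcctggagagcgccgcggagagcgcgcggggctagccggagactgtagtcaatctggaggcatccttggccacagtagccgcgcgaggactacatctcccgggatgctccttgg
Emx2: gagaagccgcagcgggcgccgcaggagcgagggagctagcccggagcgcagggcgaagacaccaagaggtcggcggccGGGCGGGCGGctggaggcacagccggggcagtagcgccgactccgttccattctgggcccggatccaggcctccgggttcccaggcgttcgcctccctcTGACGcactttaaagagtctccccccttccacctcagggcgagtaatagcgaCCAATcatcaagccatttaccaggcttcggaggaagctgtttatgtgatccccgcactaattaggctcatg

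The Nr4a2 window held TGACG at 4 places, the TATA box letters at 1 and the GC box letters at 5, of which 2 overlap. The Emx2 window held TGACG once, CCAAT once and GGGCGG at 2 overlapping places, and the Tle4 window shown held GGGCGG and CCAAT at 2 places each. A second window of Tle4, at another start site (chr19:14597164-14597463, minus strand), held GGGCGG at 2 places and no CCAAT. In the Cplx3 window 1 CCAAT was found and none of the other 3 motifs. Over all 32851 windows of the table, TGACG was present in 20.8%, TATAAA in 13.6%, GGGCGG in 35.7% and CCAAT in 37.4%. Of the 39 windows of members, 6 held TGACG, 6 TATAAA, 23 GGGCGG and 14 CCAAT. The member windows were also richer in G and C, with a median of 63.3% against 52.7% over all windows. A match describes letters in the window and is not a measured binding site.

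The libraries held 30549126 to 48711134 reads counted to genes, with a median of 48569794. Avil, the gene whose promoter drives Cre, checked the genotype labels in every pup: it lay between 0.825 and 1.46 in the 8 ChR2-flfl pups, in CPM (a read count scaled to the library's normalized total), and between 37.3 and 46.4 CPM in the 8 Avil-ChR2 pups. Avil-ChR2 replicate 4 is labelled female, but its level of the Y-linked gene Ddx3y was 54.7 CPM, within the 50.7 to 73.4 CPM of the pups labelled male and above the 1.71 to 2.57 CPM of the other pups labelled female. The labelled tissue was checked by markers: Slc17a7, the vesicular glutamate transporter of cortical projection neurons, ranged from 417 to 556 CPM, and the choroid plexus list summed to 2.89 to 7.23 CPM over all pups, with Kcnj13 listed at 0 in every pup. Sox2 and P2ry12 are listed at 0 in every pup, and each lies wholly within another gene entry. None of the 35 member entries lies wholly within another entry, but 14 of them overlap another entry in part, so that reads there could be split between entries: Cux1, Cux2, Lhx2, Mef2c, Mdga1, Bcl11a, Sox5, Foxp1, Tle4, Zfpm2, Nr4a2, Reln, Eomes and Emx2, which overlaps its antisense gene Emx2os.

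The members covered a wide range of levels. Dividing the mean CPM of the ChR2-flfl pups by the length of the longest transcript gave the highest level for Mef2c, a MADS-box transcription factor of maturing upper layer neurons, at 331 CPM per kb. Lmo4, a LIM-only co-regulator that divides callosal from subcerebral neurons, followed at 101 CPM per kb, and then Neurod6, a bHLH factor of nearly all pyramidal neurons, at 92.0 CPM per kb. The lowest levels per length were those of Nr4a2 (2.26 CPM per kb) and Emx2 (2.47 CPM per kb), apart from Eomes at 0.0816 CPM per kb. Deep layer members lay between 3.61 CPM per kb for Foxp2 and 51.4 CPM per kb for Rprm, a gene of corticothalamic layer 6 neurons. Even the rarer members rested on many reads: without Eomes, the smallest count of a member in any pup was 81 reads, for Nr4a2.

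Pups also differed from each other by very different amounts from gene to gene. Over the 16 pups the coefficient of variation of the CPM was lowest for Foxp1 (5.87%) and Sox5 (6.32%), both deep layer transcription factors, and lay below 20% for 30 of the 34 entries tested. The 4 exceptions were Crym (23.7%) and the subplate genes Ctgf (36.6%), Cplx3 (43.5%) and Nr4a2 (59.7%). Eomes, the T-box factor of intermediate progenitors, had a value in 9 of 16 pups, with a highest value of 2.03 CPM in ChR2-flfl replicate 2 and of 0.565 CPM in Avil-ChR2 replicate 4. In the other 7 of those 9 pups it did not exceed 0.226 CPM.

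**Figure D1:**
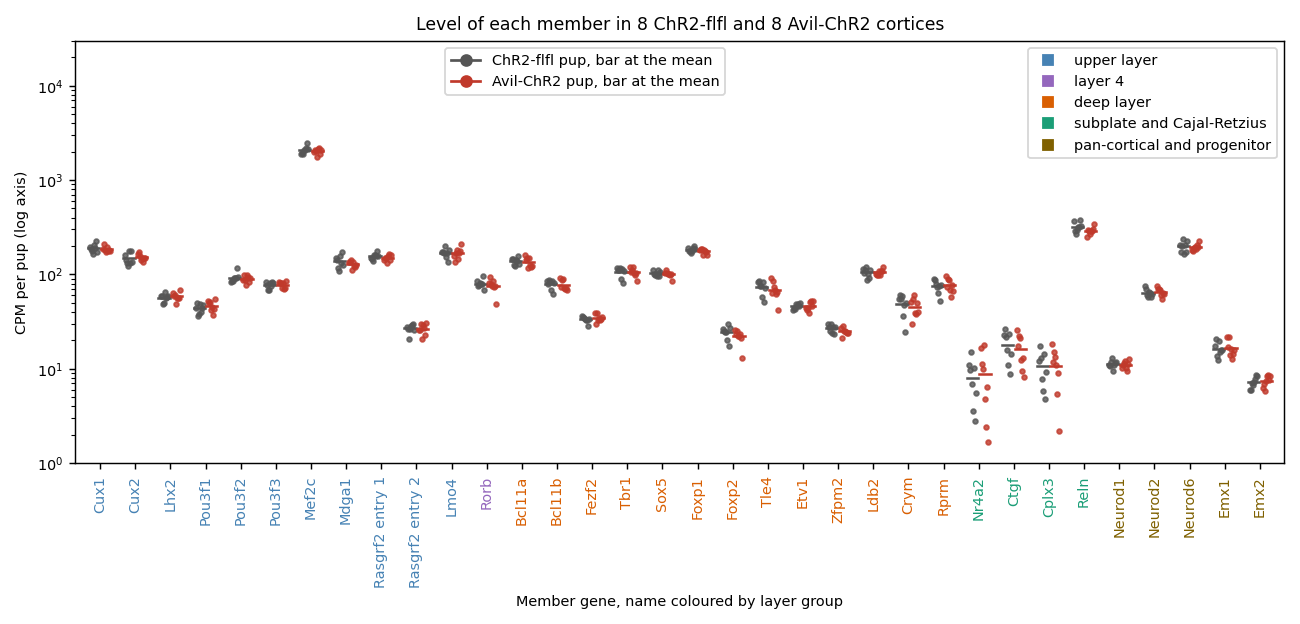
CPM of each member in each pup on a log axis, with points for the 8 ChR2-flfl pups in grey and the 8 Avil-ChR2 pups in red, bars at the group means, and gene names coloured by layer group (Eomes left out). The 2 genotypes overlap for every member shown, and the widest spread is that of Nr4a2, from 1.67 to 17.7 CPM.

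Cortical identity genes did not differ between the genotypes beyond the spread between pups. With limma and Benjamini-Hochberg adjustment over all 21183 entries tested, 0 of the 34 member entries reached an adjusted p under 0.05 and the lowest adjusted p was 0.908, for Reln, while 2 genes of the whole table (0.00944%) passed, Avil and Mars. The members' log2 differences, Avil-ChR2 minus ChR2-flfl, ran from -0.16 to 0.10 with a median of -0.03, and 23 of 34 were below 0; over all entries tested the median was 0.00. An unadjusted p under 0.05 was found for 1 member, Reln, lower in Avil-ChR2, against a background of 3.46% of all entries in that direction, and for 0 members in the other direction, against 1.95%. The data also bound the differences. For 23 of the 34 entries the 95% interval of the log2 difference lay within 0.25 on either side of 0, against 11939 of all 21183 entries tested. For 31 of the 34 it lay within 0.5. Nr4a2, Ctgf and Cplx3 were the 3 whose intervals were wider. The fit held no term for the run of pup numbers, so the spread between the runs described further on is part of these intervals. In RNA of whole cortex, fewer cells of a type and less RNA per cell cannot be told apart. No entry of the table passed a test of a genotype difference that depends on the run of pup numbers (lowest adjusted p 1.00 by limma), and at an unadjusted p under 0.05 it was found for 1 of 34 member entries, Ldb2, against 3.04% of all entries.

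A genotype difference that depends on sex was tested too, and no entry of the table passed the adjustment (lowest adjusted p 0.993 by limma). An unadjusted p under 0.05 was found for 5 of 34 member entries, Pou3f3, Reln, Cux2, Mdga1 and Pou3f1, against a background of 4.31%. The sex label of Avil-ChR2 replicate 4 goes against its Ddx3y level, so the test was repeated after the values were seen with this pup taken as male, which gave 4 males and 4 females in each genotype. Again no entry of the table passed (lowest adjusted p 0.438 by limma), while 12 of 34 member entries had an unadjusted p under 0.05, against a background of 6.23%. Of these 12, 9 were upper layer entries, and in all 9 the mean was lower in Avil-ChR2 than in ChR2-flfl males and higher in Avil-ChR2 than in ChR2-flfl females. For Pou3f3, a POU factor of upper layer neurons, the log2 difference was -0.15 in males and 0.17 in females, and for Cux2 it was -0.14 and 0.24 (adjusted p = 0.794 each by limma). The other 3 were Reln (-0.34 in males and 0.05 in females), Tbr1 (0.17 and -0.17) and Crym (0.33 and -0.46). Members vary together from pup to pup, as described further on, so these 12 are not independent of each other. These fits held no term for the run of pup numbers. Among ChR2-flfl pups sex went partly with that numbering, with males numbered 26, 35, 41 and 42 and females 27, 32, 33 and 36. A dependence on sex can therefore not be told apart here from a difference between the runs.

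**Figure D2:**
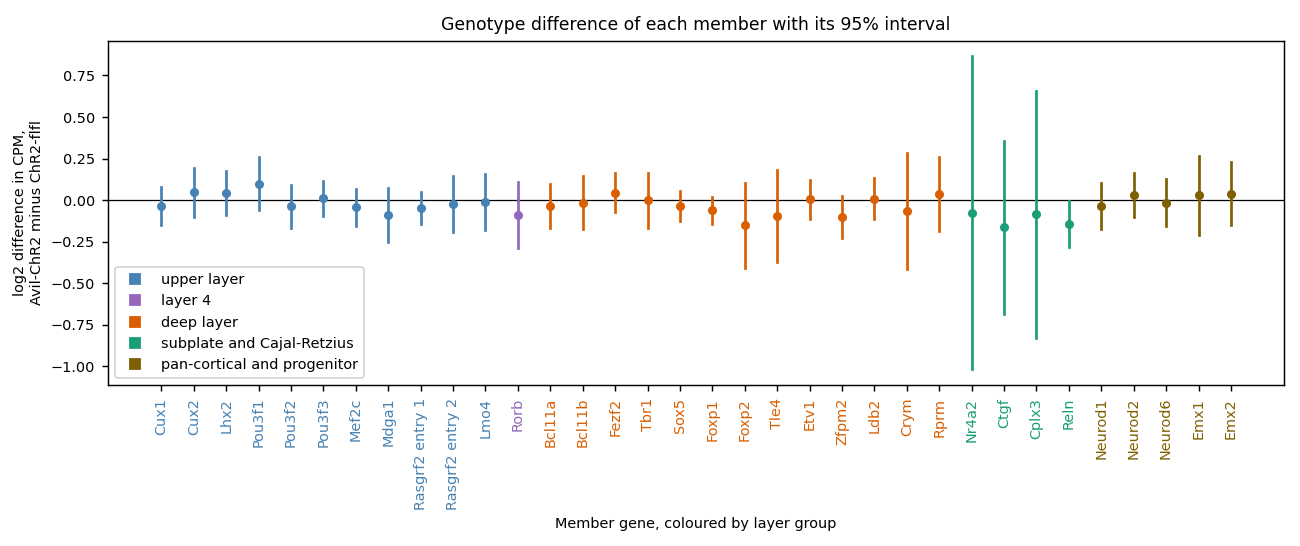
Log2 difference in CPM between Avil-ChR2 and ChR2-flfl pups (y axis, points) with its 95% interval (lines) for the 34 member entries tested, coloured by layer group. The points lie between -0.16 and 0.10, and the widest interval is that of Nr4a2, from -1.02 to 0.86.

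Upper layer members had a median log2 difference of -0.02 between the genotypes over 11 entries, 4 of them above 0. Pou3f1, a POU factor of upper layer neurons, ranged from 36.5 over a median of 44.2 to 49.4 CPM in ChR2-flfl pups and from 36.8 over 47.2 to 54.5 CPM in Avil-ChR2 pups. These ranges overlapped over most of their extent. Its means were 43.5 ± 4.87 and 46.8 ± 5.88 CPM (SD, n = 8 each), a log2 difference of 0.10 ± 0.08 (SE; adjusted p = 0.945 by limma), with 0.21 among pups 26 to 33 and -0.01 among pups 35 to 42. Mdga1, a membrane-anchored adhesion protein of migrating upper layer neurons, ranged from 109 over 137 to 172 CPM in ChR2-flfl pups and from 113 over 132 to 141 CPM in Avil-ChR2 pups, so that the Avil-ChR2 values lay inside the control range. Its means were 138 ± 21.4 and 129 ± 10.2 CPM (SD, n = 8 each), a log2 difference of -0.09 ± 0.08 (SE; adjusted p = 0.954 by limma), with 0.04 and -0.22 in the 2 runs. The remaining upper layer entries, among them the homeobox genes Cux1, Cux2 and Lhx2, had log2 differences from -0.05 to 0.05.

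In layer 4, Rorb, the nuclear receptor of neurons that receive thalamic input, ranged from 68.0 over a median of 78.6 to 95.6 CPM in ChR2-flfl pups and from 48.5 over 76.8 to 93.2 CPM in Avil-ChR2 pups. The lowest value, of Avil-ChR2 replicate 8, stood alone below the control range. Group means were 80.0 ± 7.95 and 76.1 ± 12.9 CPM (SD, n = 8 each), a log2 difference of -0.09 ± 0.09 (SE; adjusted p = 0.967 by limma), which was 0.03 within pups 26 to 33 and -0.21 within pups 35 to 42. Without Avil-ChR2 replicate 8 the log2 difference was 0.0024.

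Deep layer members had a median log2 difference of -0.03 over 13 entries, 9 of them below 0. Zfpm2, a zinc finger cofactor of corticothalamic neurons, ranged from 23.3 over a median of 27.5 to 29.9 CPM in ChR2-flfl pups and from 21.4 over 24.8 to 28.2 CPM in Avil-ChR2 pups. In all, 6 of 8 Avil-ChR2 pups lay below the control mean of log2 values. Its means were 26.8 ± 2.52 and 24.9 ± 2.10 CPM (SD, n = 8 each), a log2 difference of -0.10 ± 0.06 (SE; adjusted p = 0.939 by limma), with -0.14 and -0.06 in the 2 runs. Foxp1, a forkhead factor found in layers 3 to 6, ranged from 170 over 181 to 199 CPM in ChR2-flfl pups and from 159 over 180 to 186 CPM in Avil-ChR2 pups. Its means were 183 ± 9.89 and 175 ± 10.3 CPM (SD, n = 8 each), a log2 difference of -0.06 ± 0.04 (SE; adjusted p = 0.945 by limma), with -0.01 and -0.12 in the 2 runs. The genes that define the main deep layer outputs were close to 0: the log2 difference was -0.02 for Bcl11b, 0.04 for Fezf2, 0.00 for Tbr1 and -0.03 for Sox5. The log2 difference of greatest size in this group was that of Foxp2, a forkhead factor of layer 6, at -0.15 with a 95% interval from -0.41 to 0.10, and it was -0.05 without Avil-ChR2 replicate 8.

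Reln, the secreted glycoprotein of Cajal-Retzius cells and, at this age, also of many interneurons, ranged from 268 over a median of 319 to 380 CPM in ChR2-flfl pups and from 249 over 289 to 338 CPM in Avil-ChR2 pups. The ranges overlapped, and 7 of 8 Avil-ChR2 pups lay below the control mean of log2 values. Means were 321 ± 38.8 and 290 ± 25.5 CPM (SD, n = 8 each), a log2 difference of -0.14 ± 0.07 (SE), which was -0.14 within the run of pups 26 to 33 and -0.15 within that of pups 35 to 42. Its unadjusted limma p was 0.0407 and its adjusted p 0.908, and a two-sided exact permutation test over the 16 pups gave p = 0.0779. In 10 of the 16 fits that leave out 1 pup the unadjusted p was 0.05 or more, with a range from 0.00902 to 0.0966. With the run of pup numbers as a covariate the unadjusted limma p was 0.0250. Without ChR2-flfl replicate 3 and Avil-ChR2 replicate 4 it was 0.0187. With no filter on low values it was 0.0683, and with sex from the labels as a covariate 0.0552. After correcting the sex of Avil-ChR2 replicate 4 it was 0.0423. The adjusted p in these settings lay between 0.761 and 0.978. The difference therefore failed the correction over all genes.

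Ctgf, a secreted matricellular protein that marks subplate neurons (layer 6b) in the cortex, ranged from 8.70 over a median of 18.6 to 26.1 CPM in ChR2-flfl pups and from 8.17 over 15.2 to 25.9 CPM in Avil-ChR2 pups. These are nearly the same ranges. Means were 17.9 ± 6.33 and 16.2 ± 6.47 CPM (SD, n = 8 each), a log2 difference of -0.16 ± 0.25 (SE; adjusted p = 0.982 by limma), with 0.02 and -0.34 in the 2 runs. For Nr4a2, an orphan nuclear receptor also called Nurr1 and expressed in subplate and layer 6 neurons, the log2 difference was -0.08 with an interval from -1.02 to 0.86. Cplx3, a complexin that regulates vesicle fusion in subplate neurons, had a log2 difference of -0.09 with an interval from -0.83 to 0.66.

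Genes of all projection neurons and of progenitors had a median log2 difference of 0.03 over 5 entries. Neurod2, a bHLH factor of postmitotic pyramidal neurons, ranged from 57.1 over 62.9 to 75.6 CPM in ChR2-flfl pups and from 54.3 over 66.5 to 74.5 CPM in Avil-ChR2 pups. Its means were 64.1 ± 6.26 and 65.6 ± 6.54 CPM (SD, n = 8 each), a log2 difference of 0.03 ± 0.06 (SE; adjusted p = 0.986 by limma), with 0.11 and -0.04 in the 2 runs. Neurod1, an earlier bHLH factor of the same family, ranged from 9.51 over 11.2 to 13.1 CPM in ChR2-flfl pups and from 9.41 over 11.1 to 12.6 CPM in Avil-ChR2 pups. Its means were 11.3 ± 1.08 and 11.1 ± 1.08 CPM (SD, n = 8 each), a log2 difference of -0.03 ± 0.07 (SE; adjusted p = 0.986 by limma), with -0.05 and -0.02 in the 2 runs. Emx1, a homeobox gene of the cortical lineage, Emx2 and Neurod6 had log2 differences of 0.03, 0.04 and -0.01.

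Other genes of the same layers were compared between the genotypes in the same fit. In 5 companion lists of 50 entries tested, 0 genes reached an adjusted p under 0.05. Only 1 was higher in Avil-ChR2 at an unadjusted p under 0.05, against 1.95% of all entries, and 0 were lower, against 3.46%. The 1 was Rspo1 of the layer 4 list, with a log2 difference of 0.31 (adjusted p = 0.841 by limma). The median log2 difference was 0.01 for other upper layer genes, -0.01 for other layer 4 genes, 0.03 for other deep layer genes, -0.02 for other subplate and Cajal-Retzius genes and 0.02 for cortical progenitor genes. Ntsr1, a receptor gene of layer 6 corticothalamic neurons, had a log2 difference of -0.04.

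The labels also number the pups, in a run from 26 to 33 and another from 35 to 42, and each run holds 4 Avil-ChR2 and 4 ChR2-flfl pups. An unadjusted p under 0.05 was found for 15 of 34 member entries between the runs (of all entries, 6.74% lower and 5.76% higher). Between the genotypes it was found for 1 of 34 (of all entries, 3.46% lower and 1.95% higher), in a fit without a term for the run. What the numbering stands for (a litter, a day of dissection or a serial count) is not given in the labels. This comparison and the genes named in it were chosen after their values were seen. By limma with genotype and run as terms, 2 members were lower in pups 35 to 42 at an adjusted p under 0.05, Nr4a2 and Ctgf, against 0.0661% of all entries, and 1 was higher, Emx2, against 0.0566%. At an unadjusted p under 0.05, 9 member entries were lower, against 6.74% of all entries, and 6 were higher, against 5.76%. Sex was not balanced over the runs: the labels give 2 males among pups 26 to 33 and 5 males among pups 35 to 42. Fits with sex as a covariate are given further on, and what else may be tied to the numbering cannot be told apart from it.

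Subplate genes showed the widest gap between the runs. Nr4a2 ranged from 6.91 over a median of 11.0 to 17.7 CPM in pups 26 to 33 and from 1.67 over 4.15 to 10.1 CPM in pups 35 to 42, and 7 of the 8 later pups lay below the lowest earlier pup. The exception was ChR2-flfl replicate 6 (pup 36). Means were 12.2 ± 3.76 and 4.66 ± 2.74 CPM (SD, n = 8 each), a log2 difference of -1.54 ± 0.29 (SE; adjusted p = 0.0449 by limma), or 2.92-fold lower in the later run, with -1.08 among ChR2-flfl pups and -2.01 among Avil-ChR2 pups. Ctgf ranged from 15.8 over 21.8 to 26.1 CPM in the earlier and from 8.17 over 11.7 to 23.1 CPM in the later run, again with 7 of 8 later pups below the lowest earlier pup and pup 36 as the exception. Its log2 difference was -0.84 ± 0.16 (SE; adjusted p = 0.0462 by limma), or 1.80-fold lower, with -0.67 and -1.02 in the 2 genotypes. Cplx3 ranged from 7.72 over 13.1 to 18.2 CPM and from 2.16 over 7.41 to 14.4 CPM, with 4 of 8 later pups below the earlier range, and its log2 difference of -0.96 ± 0.29 (SE) did not pass the adjustment (adjusted p = 0.173 by limma). Reln, the Cajal-Retzius gene of the same group, had a log2 difference of 0.14 ± 0.06 (SE; adjusted p = 0.352 by limma).

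Emx2, a homeobox gene of cortical progenitors and astrocytes, was higher in the later run. It ranged from 5.86 over a median of 6.50 to 7.36 CPM in pups 26 to 33 and from 7.24 over 8.33 to 8.65 CPM in pups 35 to 42, and 7 of 8 later pups lay above the highest earlier pup. Means were 6.52 ± 0.576 and 8.09 ± 0.528 CPM (SD, n = 8 each), a log2 difference of 0.31 ± 0.06 (SE; adjusted p = 0.0462 by limma), with 0.31 and 0.32 in the 2 genotypes. Emx2os, the antisense gene that overlaps it, had a log2 difference of 0.16 (adjusted p = 0.471 by limma), and whether the counting used strand is not given in the sources used here.

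**Figure D3:**
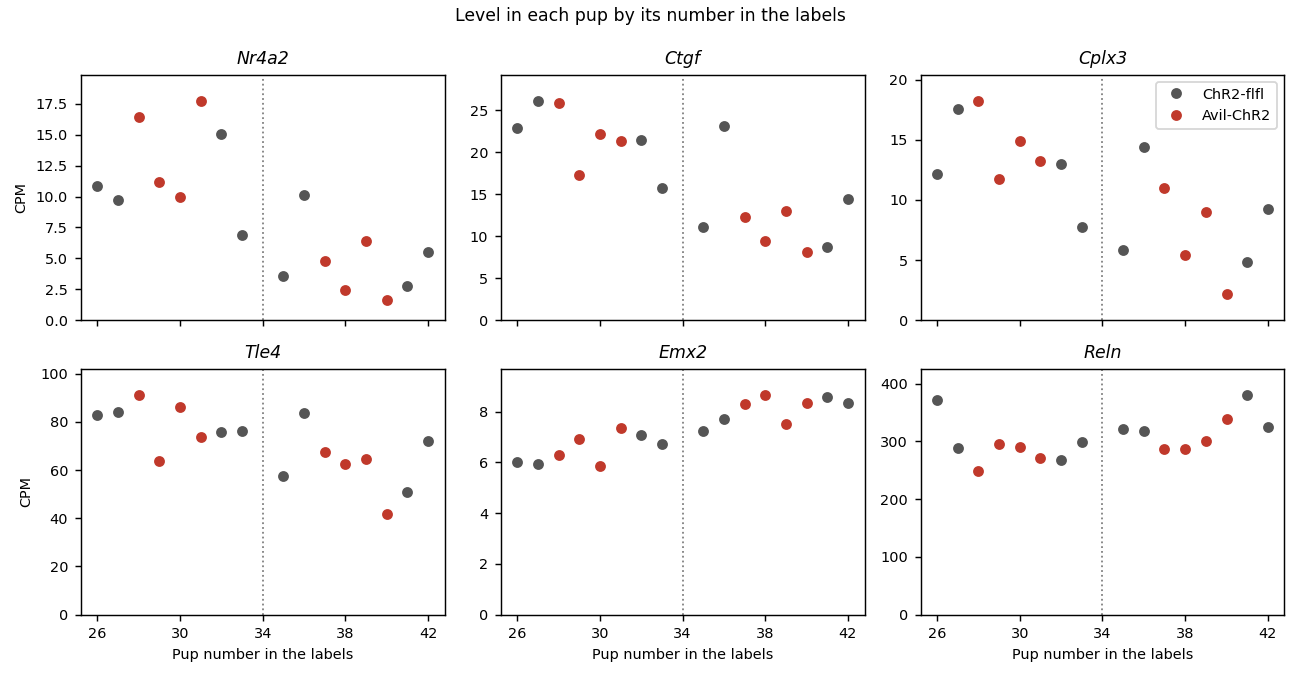
CPM of 6 members in each pup (y axes from 0) against the pup's number in the labels (x axes), ChR2-flfl pups in grey and Avil-ChR2 pups in red, with a dotted line between the 2 runs of numbers. Most values of Nr4a2, Ctgf and Cplx3 lie lower to the right of the line in both genotypes, with pup 36 as the highest there, and Emx2 lies higher, from 7.24 to 8.65 CPM.

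The calls of these 3 members depended on the setting. The adjusted p rose above 0.05 with no filter on low values (0.164 for Nr4a2, 0.164 for Ctgf and 0.0846 for Emx2), with sex from the labels as a covariate (0.0951, 0.107 and 0.0734), and with sex corrected for Avil-ChR2 replicate 4 (0.0501, 0.0629 and 0.0598), all by limma. In these 3 settings the log2 difference itself stayed at -1.54, -1.55 and -1.59 for Nr4a2, at -0.84, -0.82 and -0.84 for Ctgf, and at 0.31, 0.33 and 0.31 for Emx2. With 1 pup left out at a time, Nr4a2 and Emx2 stayed called in 4 of 16 fits, those without ChR2-flfl replicates 4 or 6 or Avil-ChR2 replicates 2 or 7, and Ctgf in 3 of 16, those without ChR2-flfl replicates 4 or 6 or Avil-ChR2 replicate 2. Leaving out any 1 of the other pups ended each call. Over these fits the log2 difference of Nr4a2 stayed between -1.74 and -1.35, that of Ctgf between -0.98 and -0.76 and that of Emx2 between 0.29 and 0.34.

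Among deep layer members, 5 of 13 were lower in the later run at an unadjusted p under 0.05 and 1 was higher, with none past the adjustment. The shares over all entries were 6.74% lower and 5.76% higher. Rprm ranged from 73.7 over a median of 87.5 to 96.6 CPM in the earlier and from 52.9 over 67.6 to 77.0 CPM in the later run, and 5 of 8 later pups lay below the earlier range. Its log2 difference was -0.34 ± 0.08 (SE; adjusted p = 0.0733 by limma). Bcl11b, the zinc finger factor of subcerebral neurons, ranged from 74.3 over 85.8 to 91.3 CPM in the earlier and from 61.3 over 70.8 to 84.4 CPM in the later run. It had a log2 difference of -0.24 ± 0.06 (SE; adjusted p = 0.0942 by limma), and Tbr1, the T-box factor of corticothalamic and subplate neurons, which ranged from 105 over 115 to 121 CPM and from 80.3 over 101 to 115 CPM, had one of -0.23 ± 0.06 (SE; adjusted p = 0.118 by limma). In both genes 6 of 8 later pups lay below the earlier range. For Tle4, a Groucho co-repressor of layer 6, and for Crym, a thyroid hormone-binding protein of deep layers, the log2 differences were -0.36 (adjusted p = 0.163 by limma) and -0.40 (adjusted p = 0.247 by limma). Tle4 ranged from 63.9 over 79.6 to 91.1 CPM and from 41.6 over 63.4 to 83.8 CPM in the 2 runs. Etv1, an ETS factor of layer 5, ranged from 39.2 over 43.3 to 49.1 CPM in the earlier and from 45.8 over 49.2 to 52.9 CPM in the later run, with a log2 difference of 0.18 ± 0.04 (SE; adjusted p = 0.0942 by limma).

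In the upper layers the log2 differences between the runs lay from -0.02 to 0.13. Their median was 0.07, against -0.09 over the deep layer entries, with 9 of 11 entries above 0, of which 3 had an unadjusted p under 0.05: Pou3f2, Mef2c and the first Rasgrf2 entry, with log2 differences of 0.13 each. The run difference had the same sign in both genotypes for 5 of 11 upper layer entries, these 3 included, and for 10 of 13 deep layer entries. Cux2 and Mdga1 were higher in the later run among ChR2-flfl pups (0.15 and 0.20) and lower among Avil-ChR2 pups (-0.12 and -0.06). Mef2c ranged from 1754 over 1962 to 2082 CPM in the earlier and from 1886 over 2130 to 2451 CPM in the later run, and 7 of 8 later pups lay above the highest earlier pup (adjusted p = 0.199 by limma). Rorb had a log2 difference of -0.12 (adjusted p = 0.633 by limma). Neurod2, of the group expressed in all layers, had a log2 difference of -0.16 (adjusted p = 0.195 by limma). Over all entries tested the median was 0.00, and 5.76% were higher in the later run at an unadjusted p under 0.05.

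**Figure D4:**
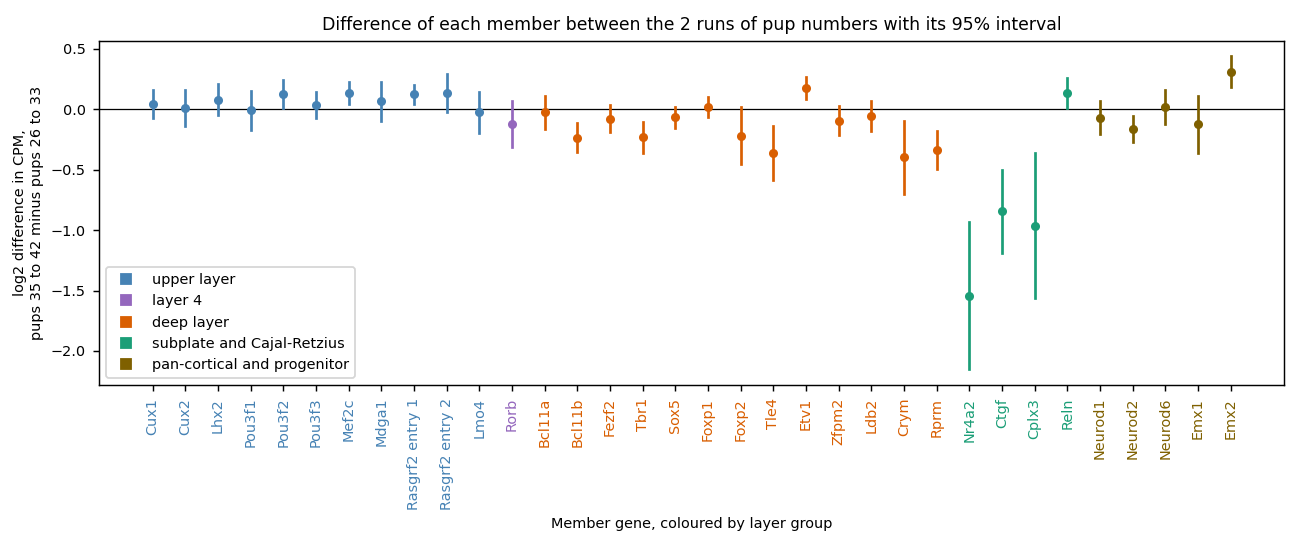
Log2 difference in CPM between pups 35 to 42 and pups 26 to 33 (y axis, points) with its 95% interval (lines) for the 34 member entries tested, coloured by layer group. Nr4a2, Ctgf and Cplx3 lie between -1.54 and -0.84, 11 of 13 deep layer entries lie below 0, and 9 of 11 upper layer entries lie above 0.

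Companion genes of the same layers were read in the same fit. Over all entries tested, 6.74% were lower in the later run and 5.76% higher at an unadjusted p under 0.05. Of 13 other deep layer entries, 6 were lower in the later run at an unadjusted p under 0.05 and 1 was higher; those with the smallest p in the list were Nxph3, a neurexophilin of layer 6b, with a log2 difference of -0.62, and Deptor, an mTOR inhibitor of layer 5, with 0.25. Of 13 other subplate and Cajal-Retzius entries, 4 were lower and 2 higher at an unadjusted p under 0.05, with 7 of 13 above 0, a median of 0.00 and a range from -1.20 to 0.45, and Nxph4, a neurexophilin of subplate neurons, had a log2 difference of -1.03. None of the entries in the 5 companion lists passed the adjustment (lowest adjusted p = 0.0644 by limma).

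Markers of some other cell types and of neighbouring tissue also differed between the runs of numbers, and these values are given beside those of the members. At an unadjusted p under 0.05, 6.74% of all entries were lower in the later run and 5.76% higher. All 9 striatal entries tested had log2 differences below 0 (5 of 9 at an unadjusted p under 0.05), and the striatal list summed to 216 to 255 CPM in pups 26 to 33 and to 199 to 235 CPM in pups 35 to 42. In the oligodendrocyte lineage 7 of 8 entries were below 0, 5 of them at an unadjusted p under 0.05, and the list summed to 332 to 420 CPM and to 309 to 350 CPM. The red blood cell list summed to 257 to 465 CPM and to 227 to 294 CPM, with 4 of 4 entries tested lower at an unadjusted p under 0.05 and Alas2 listed at 0 in every pup. Of 9 interneuron entries 6 were below 0, with 4 lower and 1 higher at an unadjusted p under 0.05, and the list summed to 334 to 396 CPM and to 326 to 357 CPM. All 6 entries of the meninges list were above 0 (median 0.19, none at an unadjusted p under 0.05), and it summed to 260 to 586 CPM and to 309 to 564 CPM. Other lists had a median log2 difference of -0.02 (thalamus), 0.00 (endothelium), 0.02 (glutamatergic neurons), 0.03 (microglia and hippocampus), 0.04 (astrocytes) and 0.11 (choroid plexus). At an unadjusted p under 0.05, the hippocampus list held 2 higher and 1 lower entries, and the glutamatergic list 2 of each. The astrocyte list held 1 of each, the thalamus list 1 lower, and the other lists none. None of these lists held an entry past the adjustment. The part of these cells or of the dissection in the member values was not tested.

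Bcl11b, Foxp1, Foxp2, Mef2c and Rprm are also expressed in the striatum, and Neurod1, Neurod2, Lhx2, Emx2 and Etv1 in the hippocampus, so these 10 were set against the mean log2 value of the respective marker list over 16 pups, centred within genotype. Bcl11b had the highest correlation with the striatal markers (Pearson r = 0.85, rho = 0.89, adjusted permutation p = 3e-04 over 10 relations, r = 0.82 without the 2 pups farthest from the median), followed by Rprm (r = 0.83, rho = 0.84, adjusted permutation p = 3e-04, r = 0.83 without 2 pups). Mef2c ran against the striatal markers (r = -0.68, rho = -0.71, adjusted permutation p = 0.0106, r = -0.69 without 2 pups), and Foxp2 with them (r = 0.60, rho = 0.53, adjusted permutation p = 0.0280, r = 0.61 without 2 pups). For Foxp1 r was -0.0032, and none of the 5 hippocampal relations passed the adjustment. Centred within genotype and run, r fell to 0.65 for Bcl11b, 0.63 for Rprm, -0.57 for Mef2c and 0.45 for Foxp2, and no relation of the 10 had an adjusted permutation p under 0.05 (lowest 0.0529).

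Members of the upper layers tended to vary with each other from pup to pup, and so did members of the deep layers. Pearson's r was computed over 16 pups for 560 pairs of member entries, with values centred within genotype and run and labels permuted within these groups. Of the 560, 32 positive and 4 negative correlations had an adjusted permutation p under 0.05. The median r was 0.38 over the 54 pairs within the upper layers and 0.36 over the 78 pairs within the deep layers, and -0.18 over the 143 pairs of an upper with a deep layer member. For pairs of a deep layer with a subplate or Cajal-Retzius member it was 0.29. Within the subplate and Cajal-Retzius group 3 of 6 pairs were positive, those without Reln, and within the pan-cortical and progenitor group 4 of 10 were, with a median r of -0.30. An r above 0.5 was found in 40.7% of the pairs within the upper layers and in 37.2% within the deep layers, and in 8.28% of all pairs of the 15137 entries with a mean log2 CPM of at least 0, whose median r was 0.0. Pairs of an upper with a deep layer member went both ways: 13.3% had an r above 0.5 and 18.9% below -0.5, the latter against 7.92% of all pairs. Of these, 2 positive pairs (Mdga1 with Bcl11a, Lmo4 with Ldb2) and 1 negative pair (Cux1 with Crym) had an adjusted permutation p under 0.05. Pairs share the library and its normalization, and they are not independent of each other.

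Single pairs reached higher values. Within the upper layers, Lhx2 and Pou3f1 had r = 0.87 (rho = 0.93, adjusted permutation p = 0.0056, r = 0.83 without the 2 pups farthest from the median). Cux1 and Cux2, homologous homeobox genes, had r = 0.85 (rho = 0.88, adjusted permutation p = 0.0331, r = 0.84 without 2 pups), while Cux1 and Lmo4 had r = -0.85 (rho = -0.86, adjusted permutation p = 0.0084, r = -0.78 without 2 pups). In the deep layers, Bcl11b and Tbr1 had r = 0.89 (rho = 0.80, adjusted permutation p = 0.0149, r = 0.85 without 2 pups), and Foxp2 and Tle4 had r = 0.92 (rho = 0.91, adjusted permutation p = 0.0325, r = 0.83 without 2 pups). The highest r of all, 0.94, was that of Ldb2, a LIM domain-binding protein of subcerebral neurons, with Neurod6 (rho = 0.91, adjusted permutation p = 0.0084, r = 0.91 without 2 pups).

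Subplate genes varied together, and Ctgf and Cplx3 also varied with the layer 6 gene Tle4. Ctgf and Cplx3 had r = 0.87 (rho = 0.94, adjusted permutation p = 0.0056, r = 0.88 without 2 pups), and Nr4a2 had r = 0.85 with each of them (rho = 0.80 and 0.83, adjusted permutation p = 0.0325 and 0.0358, r = 0.78 and 0.77 without 2 pups). Tle4 had r = 0.89 with Cplx3 (rho = 0.87, adjusted permutation p = 0.0056, r = 0.80 without 2 pups) and r = 0.85 with Ctgf (rho = 0.82, adjusted permutation p = 0.0056, r = 0.82 without 2 pups). Tle4 with Nr4a2 did not pass the adjustment (r = 0.72, rho = 0.64, adjusted permutation p = 0.0964, r = 0.53 without 2 pups). Other deep layer members passed with a subplate gene as well. Rprm had r = 0.83 with Ctgf (adjusted permutation p = 0.0325), and Tbr1 had r = 0.79 with Nr4a2 (adjusted permutation p = 0.0493). In the later run Ctgf, Cplx3, Nr4a2 and Tle4 had their highest value in pup 36 and their lowest in pup 40, which is Avil-ChR2 replicate 8. The first Rasgrf2 entry, which codes for a Ras guanine nucleotide exchange factor of upper layers, ran against Nr4a2 with r = -0.83 (rho = -0.84, adjusted permutation p = 0.0179, r = -0.76 without 2 pups).

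**Figure D5:**
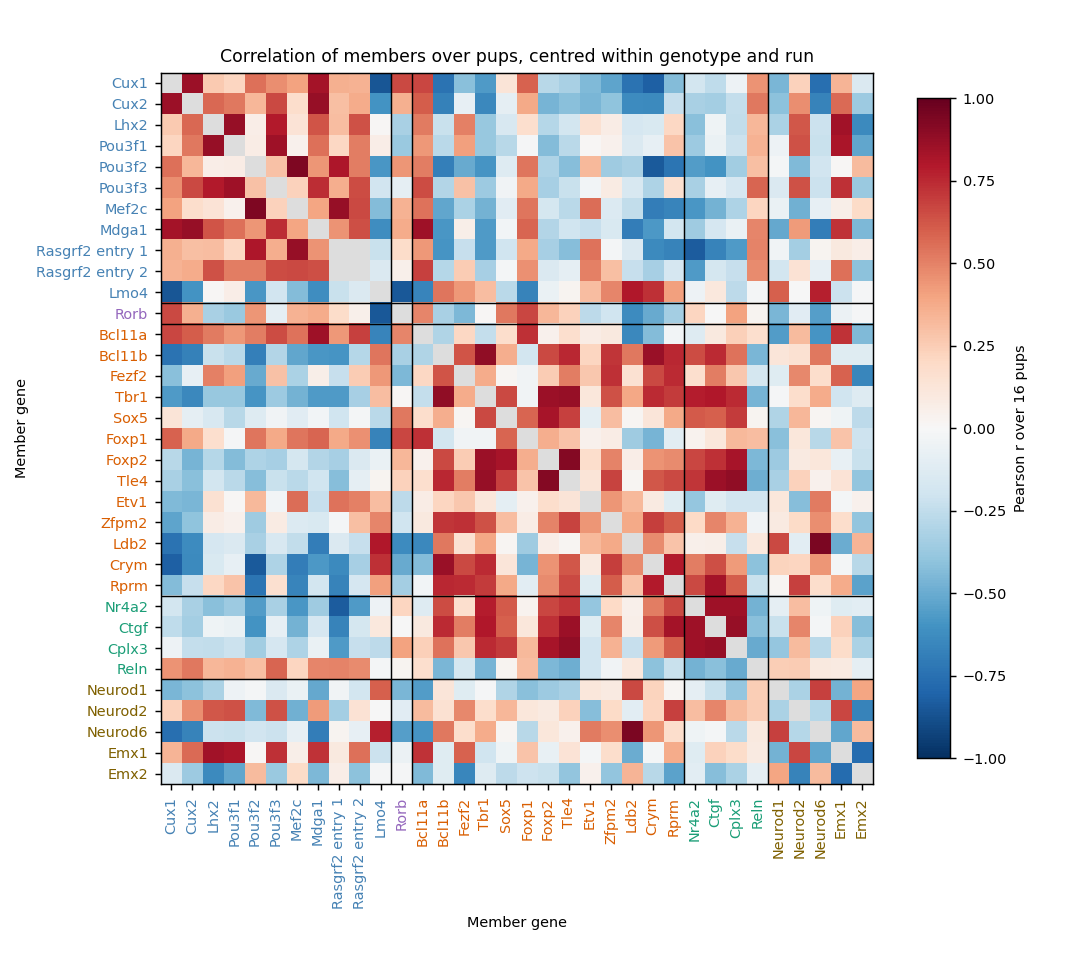
Pearson's r over 16 pups for each pair of member entries (both axes, ordered by layer group, black lines between groups), with values centred within genotype and run and colour from -1 (blue) to 1 (red). Blocks within the upper layers (median 0.38) and within the deep layers (median 0.36) are mostly red, and the block between them (median -0.18) is mostly blue.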

How the data were processed

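RNA of the cortex of 16 pups was measured by sequencing of TruSeq mRNA libraries on a NextSeq instrument. According to the methods of the study, the authors used SeqMan NGen for alignment to the mouse build GRCm38 (mm10) and ArrayStar for read counts per gene, which they scaled with edgeR (TMM). The deposited values are CPM (read counts scaled to the normalized library total) on a linear scale, written with decimal commas, with an empty cell where a gene had no reads. Whole reads per gene could be worked out from the CPM steps, but edgeR and DESeq2 were not run here. The CPM remain relative values, each read against the normalized total of its own library.

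The CPM were taken to log2, with -5 as a floor that also replaced empty cells (4432 of 338928 values tested). Entries with at least 12 of 16 values above -5 were kept, which left 21183 of 36930. Differences were tested with limma 3.58.1 in R 4.3.3 (lmFit, eBayes with trend, two-sided) on all 16 pups, with Benjamini-Hochberg adjustment over all 21183. Single genes were also tested with an exact permutation test over pups. Relations over pups used permutations, and the figures were drawn with matplotlib 3.10.9. Depth was 30549126 to 48711134 reads per pup. The labels give each pup 1 library, so p-values measure the spread between pups. All tests, those between the runs included, treat the pups as independent. The labels do not give litters or days of dissection, so a spread between these is not measured.

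Groups were taken from the labels. Members given in full were those with an unadjusted p under 0.05 and the 2 with the smallest p in each layer group. The members, the companion lists and the marker lists were chosen with earlier results of these data known. Same-numbered replicates of the 2 genotypes are different pups: the correlation of their deviations over 15137 genes ran from -0.34 to 0.39, so they were not treated as pairs. Transcript lengths were those of GENCODE M21 and promoter windows those of RefSeq. Alternatives changed the filter, the pseudocount, the normalization, covariates and the pups used.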

Additional observations from a re-analysis of the deposited data

Results flagged for a closer look

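Among 68 groups of 8 pups tested (each member entry in each genotype), 6 held a pup that stood farther from the others than Dixon's 95% criterion allows, where chance gives about 1 in 20. In Avil-ChR2 replicate 8 the lowest values of the group were 48.5 CPM for Rorb, 85.9 CPM for Sox5 and 13.1 CPM for Foxp2. In ChR2-flfl replicate 7 Pou3f2 was highest, at 116 CPM, and Fezf2 lowest, at 28.4 CPM. In ChR2-flfl replicate 3, the library of lowest depth, the second Rasgrf2 entry was lowest, at 20.7 CPM. Without the pup named, the log2 difference between the genotypes went from -0.09 to 0.0024 for Rorb, from -0.03 to -0.0022 for Sox5, from -0.15 to -0.05 for Foxp2, from -0.04 to 0.01 for Pou3f2, from 0.04 to 0.01 for Fezf2 and from -0.02 to -0.08 for the second Rasgrf2 entry.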

How the results depend on the processing

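No member reached an adjusted p under 0.05 between the genotypes in the main fit, in 12 alternatives or in the 16 fits without 1 pup. The edgeR and DESeq2 alternatives were not run, although whole reads could be worked out from the CPM steps, because the decimal commas of the deposited columns kept these reads from being checked as counts. Genes of the whole table that passed between the genotypes numbered 2, and 1 with the replicate number as a block, in pups 26 to 33 only, in pups 35 to 42 only and without the 2 doubted libraries (ChR2-flfl replicate 3, Avil-ChR2 replicate 4), and 1 to 2 with 1 pup left out. Over the 12 alternatives the highest count was 3. Members at an unadjusted p under 0.05 numbered 1, but 0 with no filter and with sex from the labels as a covariate, 3 in either run alone, and 0 to 1 with 1 pup left out. The replicate block changed no member's call. Among the members given in full, the sign of an uncalled difference turned for Pou3f1 (-0.0131) and Neurod2 (-0.0430) in pups 35 to 42 only, for Mdga1 (0.0408), Rorb (0.0315) and Ctgf (0.0164) in pups 26 to 33 only, and for Rorb without Avil-ChR2 replicate 8 (from -0.132 to 0.0024 with 1 pup left out). Of all 34 entries, 25 had differences of opposite sign in the 2 runs.

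The comparison of the runs of pup numbers and its alternatives were added after seeing the data. Genes of the whole table that passed numbered 26, but 4 with no filter, 16 with sex as a covariate and 0 within ChR2-flfl or within Avil-ChR2 pups, and 7 to 123 with 1 pup left out (123 without ChR2-flfl replicate 4, 90 without ChR2-flfl replicate 6, 66 without Avil-ChR2 replicate 2). Members numbered 3, but 1 with log2(CPM + 1), where Ctgf had an adjusted p of 0.0539 and Emx2 of 0.0563, and 0 with no filter, with either coding of sex and within either genotype (limma; 12 to 15 members at an unadjusted p under 0.05), and 0 to 6 with 1 pup left out. Of the 15 members with an unadjusted p under 0.05 none changed sign in these alternatives, 11 of all 34 entries differed in sign between the 2 genotypes, and the cause of lost calls was not tested.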
